A study of Mus musculus with 12 samples.

Results

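Txnip, Arrdc4, Arrdc3, Mlx and Mlxip form a small group of genes around glucose sensing: 3 arrestin-domain genes and 2 subunits of the transcription factor pair that reads glucose supply. They were taken by gene name from the deposited count table, and all 5 were found among its 21834 genes. RNA was sequenced from BV2 cells, an immortalised mouse microglial line, in 4 groups of 3 libraries. Lentivirus had brought in a single shRNA, either a control (shCtrl) or one that targets Anxa2 (shAnxa2), and transduced cells were selected with puromycin. Each shRNA gave 1 stable line, so an effect of the knockdown cannot be told apart from other differences between the lines. By their labels, the groups shCtrl-CTRL and shAnxa2-CTRL were kept in normal culture. The groups shCtrl-OGDR and shAnxa2-OGDR are labelled as oxygen-glucose deprivation for 4 h, in glucose-free medium at 1% oxygen, followed by 12 h of reoxygenation in normal medium (OGD/R). The study's methods describe a longer reoxygenation than the labels do. The study's methods call the 3 samples of a group biological replicates, each made up of technical replicates. Neither they nor the labels say whether these were separate cultures, so the p-values measure only the spread between these libraries.

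Glucose that enters a cell is phosphorylated, and glucose 6-phosphate sends MondoA (encoded by Mlxip) or its relative ChREBP (Mlxipl), each paired with Mlx, to carbohydrate response elements in DNA. Txnip and Arrdc4 are the best known targets of MondoA and Mlx. Both encode alpha-arrestins that promote removal of glucose transporters from the cell surface, so the loop restrains glucose uptake, and Txnip protein also binds thioredoxin and has been tied to the NLRP3 inflammasome in ischaemic brain. Arrdc3 encodes an alpha-arrestin best known for the turnover of beta-adrenergic receptors.

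Anxa2, the targeted gene, had a mean of 172 ± 6.36 CPM (counts scaled to library size, SD, n = 3) in shCtrl-CTRL, 279 ± 24.3 in shCtrl-OGDR, 40.4 ± 4.86 in shAnxa2-CTRL and 19.6 ± 1.26 in shAnxa2-OGDR. It was thus lower in both shAnxa2 groups, and the line labels fitted it. A separate cell type tag in the labels gives the lines differently and was not used. The treatment labels fitted hypoxia-responsive genes in the shCtrl line only. By the labels these cells were sampled after 12 h of reoxygenation, so such genes are an indirect check of the labels. Of 12 tested targets of HIF, the oxygen-sensitive transcription factor, 10 were higher and 1 was lower in shCtrl-OGDR than in shCtrl-CTRL, while 0 were higher and 10 were lower in the libraries labelled shAnxa2-OGDR than in those labelled shAnxa2-CTRL. Of all tested genes, 32.4% were higher and 31.0% lower in the shCtrl comparison, and 28.2% and 26.8% in that of the shAnxa2 line. The HIF target Ndrg1 averaged 10.9 and 72.2 CPM in shCtrl-CTRL and shCtrl-OGDR, but 48.8 and 8.40 CPM in the libraries labelled shAnxa2-CTRL and shAnxa2-OGDR. With only the shCtrl libraries in the fit, HIF targets again gave 10 higher and 1 lower, and no list count of the shCtrl comparison changed by more than 1. An exchange of treatment labels within the shAnxa2 line cannot be told apart from an opposite response of that line, so results that use its libraries are given by their labels. The counts per library summed to between 19521877 and 27288843. All 12 microglial marker genes passed the filter on low counts and summed to between 1865 and 2316 CPM in every library. Tmem119, P2ry12, Cx3cr1 and Aif1 were low, with group means between 1.73 and 10.3 CPM. Neuronal markers summed to at most 1.33 CPM, with Snap25 and Syt1 at 0, and astrocyte markers to at most 0.97 CPM, with Aqp4 at 0. Oligodendrocyte markers summed to 4.08 to 6.71 CPM, with Mog at 0. The 5 endothelial markers, none at 0 in every library, summed to 235 to 264 CPM in shCtrl-CTRL and 191 to 205 CPM in shCtrl-OGDR. In shAnxa2-CTRL they summed to 203 to 223 CPM and in shAnxa2-OGDR to 224 to 241 CPM, and their part in the results was not tested. Flt1 and Vwf made up most of these sums, with means of 202 and 43.6 CPM in shCtrl-CTRL. Cldn5, Pecam1 and Cdh5 were near 0, at 0.13, 0.29 and 1.21 CPM in that group.

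The promoters of Txnip, Arrdc4 and Mlx are shown because each holds a CACG motif of the kind bound by Mlx-containing factors. Windows from 250 bases before to 50 bases after the annotated start came from RefSeq (GRCm38.p6), a different build from that of the count table. All 5 genes were found, with 7 windows in all because Arrdc3 has 3 start sites. Capitals mark the spaced CACG pair in Txnip (chr3:96557707-96558006, plus strand) and the E-box in Arrdc4 (chr7:68749189-68749488, minus strand) and Mlx (chr11:101087040-101087339, plus strand). Each is printed 5′ to 3′ on the strand of its gene.
Txnip: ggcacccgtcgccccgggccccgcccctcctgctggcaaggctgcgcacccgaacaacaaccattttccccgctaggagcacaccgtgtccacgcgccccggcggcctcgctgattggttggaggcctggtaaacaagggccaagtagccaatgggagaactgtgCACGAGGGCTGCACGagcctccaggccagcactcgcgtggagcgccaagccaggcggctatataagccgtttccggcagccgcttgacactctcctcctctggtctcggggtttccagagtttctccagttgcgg
Arrdc4: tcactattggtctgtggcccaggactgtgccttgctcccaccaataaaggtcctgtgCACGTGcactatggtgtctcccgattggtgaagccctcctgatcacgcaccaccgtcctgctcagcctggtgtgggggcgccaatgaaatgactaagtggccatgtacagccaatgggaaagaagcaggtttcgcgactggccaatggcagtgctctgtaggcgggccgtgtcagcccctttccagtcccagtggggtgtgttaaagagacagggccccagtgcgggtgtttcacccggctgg
Mlx: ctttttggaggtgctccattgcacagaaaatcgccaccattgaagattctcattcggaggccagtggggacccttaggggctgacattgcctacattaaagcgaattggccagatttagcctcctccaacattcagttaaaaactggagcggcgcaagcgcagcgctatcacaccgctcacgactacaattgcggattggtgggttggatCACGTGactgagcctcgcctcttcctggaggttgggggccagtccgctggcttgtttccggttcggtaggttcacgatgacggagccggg

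The searches read both strands. The E-box, CACGTG, lay at -193 to -188 from the start of Arrdc4 and at -40 to -35 from that of Mlx, and it was present in 7.15% of all 32851 mouse promoter windows. The spaced pair, an abbreviated carbohydrate response element that reads CACG, any base, G, 5 free bases and CACG, matched Txnip at -85 to -71 and occurred in 0.177% of windows. The longer ChoRE consensus of that element occurred in 0.119% of windows and in none of the 7. The search motifs can share letters, since the start of the spaced pair reads as an E-box where its free base is T. The CCAAT box, CCAAT, had 6 matches in Arrdc4, 2 each in Txnip, Mlx and Mlxip and 1 in each of 2 Arrdc3 windows, against at least 1 match in 37.4% of windows. Those 2 Arrdc3 windows overlap and their matches are the same site. The FOXO core TGTTTAC matched Txnip at -121 to -115 on the reverse strand and was in 3.65% of windows. Neither the E-box nor the spaced pair was in the windows of Mlxip or Arrdc3, and a match is a description of letters, not of binding.

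**Figure D1:**
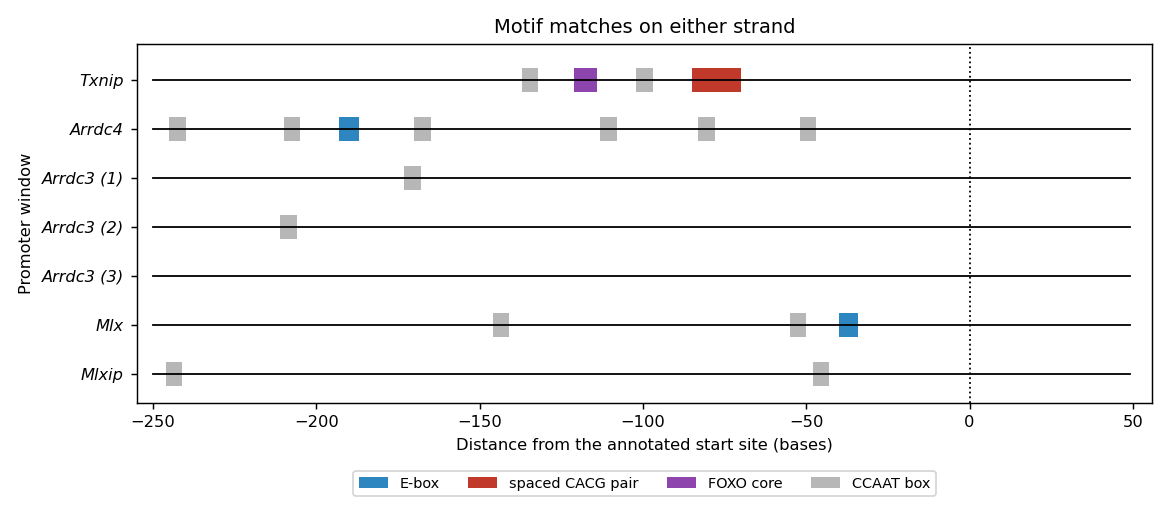
Motif matches in the promoter windows of the 5 genes, with distance from the annotated start in bases on the horizontal axis and 1 row per window. The E-box is at -193 in Arrdc4 and -40 in Mlx, and Txnip has the spaced CACG pair at -85.

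Per length, the 5 genes spanned almost the whole range of expression in these cells. Levels between genes are compared as RPKM, the scaled count divided by the exon length of each gene in kilobases. Txnip was the most abundant, with mean levels of 71.4 to 94.96 RPKM over the 4 groups, between the 94.1st and 96.2nd percentile of 11612 genes with a length. Mlx followed at 41.5 to 49.1 RPKM (percentiles 89.1 to 91.4) and Mlxip at 12.4 to 13.9 RPKM (64.7 to 67.5). Arrdc4 stood lower, at 6.27 to 9.78 RPKM (46.2 to 57.5), and Arrdc3 was barely above the filter at 0.119 to 0.214 RPKM (2.95 to 6.08). Within single libraries the RPKM of Txnip was between 9.17 and 12.6 times that of Arrdc4, and the RPKM of Mlxip was 0.244 to 0.353 times that of Mlx. In the table Txnip (ENSMUSG00000038393) lies at chr3:96465273-96469199 and Arrdc4 (ENSMUSG00000042659) at chr7:68386743-68398989, on the plus and the minus strand, in mm39 coordinates according to the submitters' processing notes. Arrdc3 (ENSMUSG00000074794) lies at chr13:81031503-81044161, Mlx (ENSMUSG00000017801) at chr11:100978103-100983033 and Mlxip (ENSMUSG00000038342) at chr5:123532861-123595995, all on the plus strand. The counts are given per gene and do not tell transcripts apart.

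**Figure D2:**
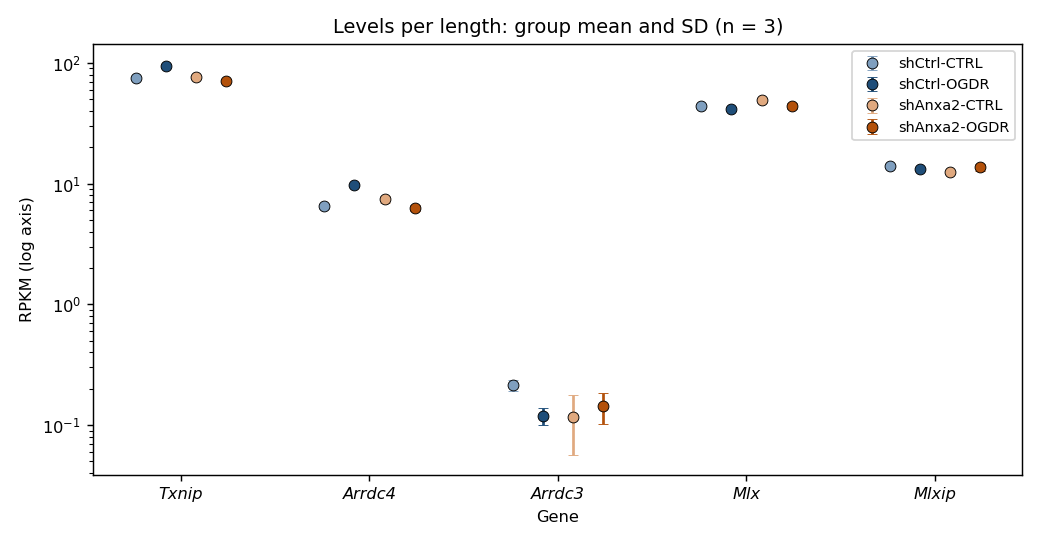
Mean level of each gene in the 4 groups in RPKM on a log axis. Points are group means and whiskers the SD over 3 libraries, hidden by the point where small. Txnip and Mlx sit far above Arrdc3, the lowest.

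Txnip rose after OGD/R in shCtrl cells. Its level was 232, 231 and 240 CPM in the 3 shCtrl-CTRL libraries and 286, 309 and 295 CPM in the 3 shCtrl-OGDR libraries, and the groups did not overlap, as for 68.0% of all tested genes. The log2 fold change was 0.34 (SE 0.05, 95% interval 0.24 to 0.43, adjusted p = 9.51e-07, edgeR quasi-likelihood test with Benjamini-Hochberg adjustment), a level 1.26 times that of untreated cells. This change stood at the 76.4th percentile of the changes of all tested genes, so it was a moderate one. In the libraries labelled shAnxa2-CTRL, Txnip was at 232, 239 and 243 CPM. In those labelled shAnxa2-OGDR it was at 228, 214 and 227 CPM, lower without overlap (as for 58.9% of genes), but the difference did not pass the threshold (log2 fold change -0.09, SE 0.05, 95% interval -0.19 to 0.00, adjusted p = 0.0964 by edgeR). It did pass, at -0.10 to -0.14, under 4 other settings: DESeq2, no filter on low counts, and scaling by upper quartiles or by library totals. The OGD/R effects of the lines differed by -0.43 on the log2 scale (SE 0.07, adjusted p = 3.34e-06 for the interaction in edgeR). Between the lines, the libraries under CTRL labels overlapped in Txnip level (log2 difference shAnxa2 minus shCtrl 0.02, 95% interval -0.08 to 0.12, adjusted p = 0.738 by edgeR). Under OGDR labels the shAnxa2 line was lower by -0.41 (SE 0.05, adjusted p = 3.56e-08 by edgeR), or 0.752 times the shCtrl level.

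Arrdc4, the other MondoA target, changed more than Txnip. Its levels were 26.6, 27.2 and 24.7 CPM in shCtrl-CTRL and 40.4, 39.2 and 38.9 CPM in shCtrl-OGDR, again without overlap. The log2 fold change was 0.60 (SE 0.07, 95% interval 0.45 to 0.74, adjusted p = 5.22e-08 by edgeR), 1.51 times the untreated level and at the 87.6th percentile. In the shAnxa2 line the levels were 32.3, 29.4 and 28.3 CPM under CTRL labels and 26.6, 24.0 and 25.4 CPM under OGDR labels. Arrdc4 therefore fell there with the OGDR label (log2 fold change -0.24, SE 0.07, adjusted p = 0.00589 by edgeR). The 2 effects differed by -0.84 (SE 0.10, adjusted p = 5.51e-08 for the interaction in edgeR). Under CTRL labels the shAnxa2 line was higher than shCtrl by 0.20 (SE 0.07, adjusted p = 0.0192 by edgeR), and this call was lost without replicate 3 of shCtrl-CTRL or replicate 1 of shAnxa2-CTRL. Under OGDR labels the shAnxa2 line was lower than shCtrl by -0.64 (SE 0.07, adjusted p = 1.53e-08 by edgeR). Ordered by mean CPM, Arrdc4 and Txnip both had shCtrl-OGDR first, then shAnxa2-CTRL, shCtrl-CTRL and shAnxa2-OGDR. The middle neighbours overlapped for Txnip and the last ones for Arrdc4. Across the 12 libraries, which share their groups, their levels had a Pearson correlation of 0.91 as a description.

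**Figure D3:**
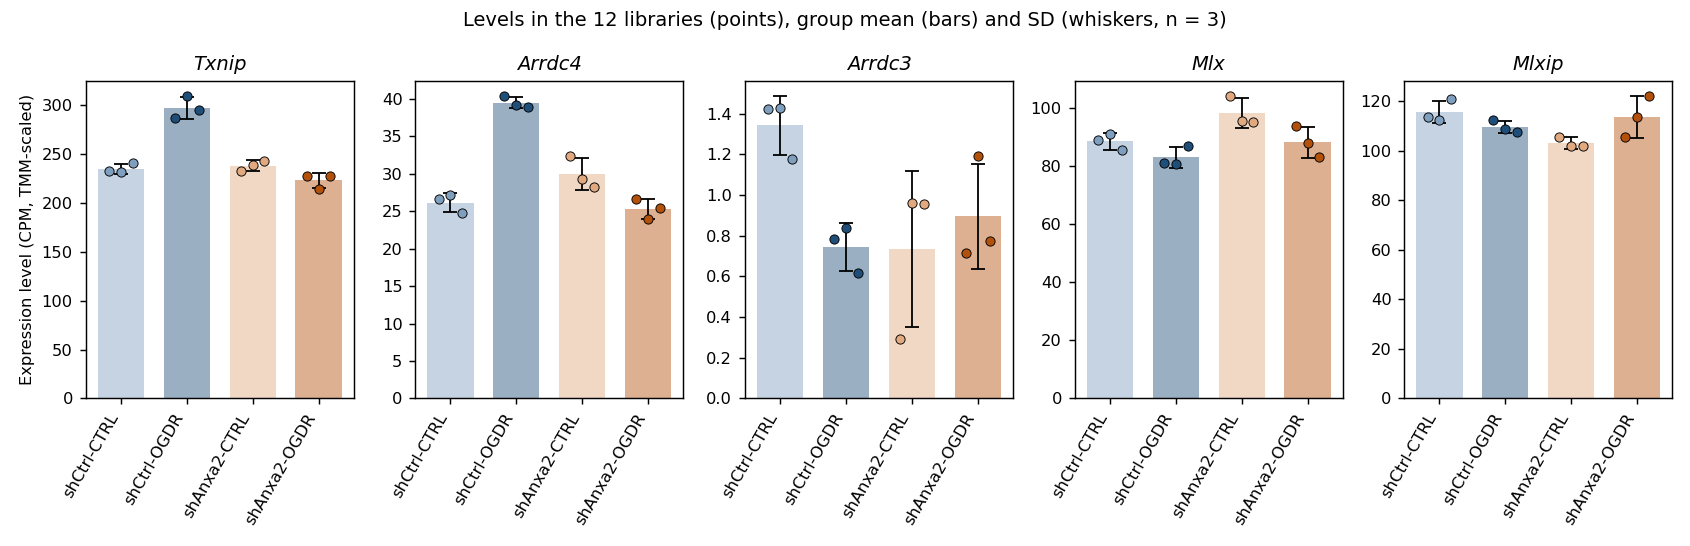
Level of each gene in CPM in every library of the 4 groups. Points are libraries, bars start at 0 and show the group mean, and whiskers show the SD of 3 libraries. For Txnip and Arrdc4 the 3 shCtrl-OGDR libraries lie above all other libraries.

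Arrdc3 was counted by few reads, 6 to 39 per library, so its values are imprecise. It was at 1.42, 1.43 and 1.18 CPM in shCtrl-CTRL and at 0.782, 0.840 and 0.615 CPM in shCtrl-OGDR. It fell, with a log2 fold change of -0.82 (SE 0.33, 95% interval -1.50 to -0.15, adjusted p = 0.031 by edgeR), opposite in direction to the other arrestin-domain genes. That call was lost when replicate 1 or 2 of shCtrl-CTRL or replicate 1 or 3 of shCtrl-OGDR was left out. The libraries labelled shAnxa2-CTRL had 0.293, 0.963 and 0.953 CPM and those labelled shAnxa2-OGDR had 0.714, 1.19 and 0.776 CPM, with overlapping ranges (log2 difference 0.28, 95% interval -0.47 to 1.03, adjusted p = 0.537 by edgeR). That difference turned sign without replicate 1 of shAnxa2-CTRL (-0.07) or replicate 2 of shAnxa2-OGDR (-0.013). Under CTRL labels the shAnxa2 line was lower than shCtrl by -0.83 (SE 0.33, adjusted p = 0.0334 by edgeR), a call lost without replicate 1 or 2 of shCtrl-CTRL or replicate 1 of shAnxa2-CTRL. Under OGDR labels the lines overlapped (0.27, 95% interval -0.47 to 1.01, adjusted p = 0.517 by edgeR), with -0.026 when replicate 2 of shAnxa2-OGDR was left out. The interaction was 1.10 (SE 0.49, adjusted p = 0.0479 by edgeR) and was lost under 5 other settings and without any of 7 libraries. The 3 promoter windows of Arrdc3 hold no E-box, and that of Txnip holds none either. A link between the motifs and these changes was not tested.

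Mlx and Mlxip, the factors themselves, moved little. In shCtrl cells Mlx was at 89.0, 91.1 and 85.4 CPM untreated and at 81.0, 80.8 and 87.0 CPM after OGD/R. The ranges overlapped, and the log2 fold change of -0.10 (SE 0.05, 95% interval -0.21 to 0.02, adjusted p = 0.13 by edgeR) missed the threshold. Mlxip was at 114, 112 and 121 CPM and at 113, 109 and 108 CPM, also overlapping, with a change of -0.08 (SE 0.05, 95% interval -0.18 to 0.03, adjusted p = 0.195 by edgeR). In the shAnxa2 line Mlx was at 104, 95.3 and 95.01 CPM under CTRL labels and 93.7, 87.7 and 83.1 CPM under OGDR labels, a decrease of -0.15 (SE 0.05, adjusted p = 0.0203 by edgeR). Mlxip was at 106, 102 and 102 CPM and at 106, 114 and 122 CPM, an increase of 0.14 (SE 0.05, adjusted p = 0.0247 by edgeR), with ranges that overlapped. The Mlx call was lost without replicate 1 of shAnxa2-CTRL or replicate 3 of shAnxa2-OGDR. The Mlxip call was lost without replicate 2 or 3 of either shAnxa2 group, and under 4 other settings. Under CTRL labels the shAnxa2 line had Mlx higher by 0.15 (SE 0.05, adjusted p = 0.0216) and Mlxip lower by -0.17 (SE 0.05, adjusted p = 0.00785) than shCtrl by edgeR, and neither pair of ranges overlapped. Both calls were lost without replicate 3 of shCtrl-CTRL, and that of Mlx also without replicate 1 of shAnxa2-CTRL. Under OGDR labels neither factor passed between the lines (Mlx 0.09, adjusted p = 0.151, and Mlxip 0.05, adjusted p = 0.382 by edgeR). Mlx overlaps Psmc3ip on the other strand by 385 bases, and the library kit does not mark strand, so reads in that stretch could belong to either gene. Mlxipl, the gene of ChREBP, had at most 18 counts in any library and was not tested.

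**Figure D4:**
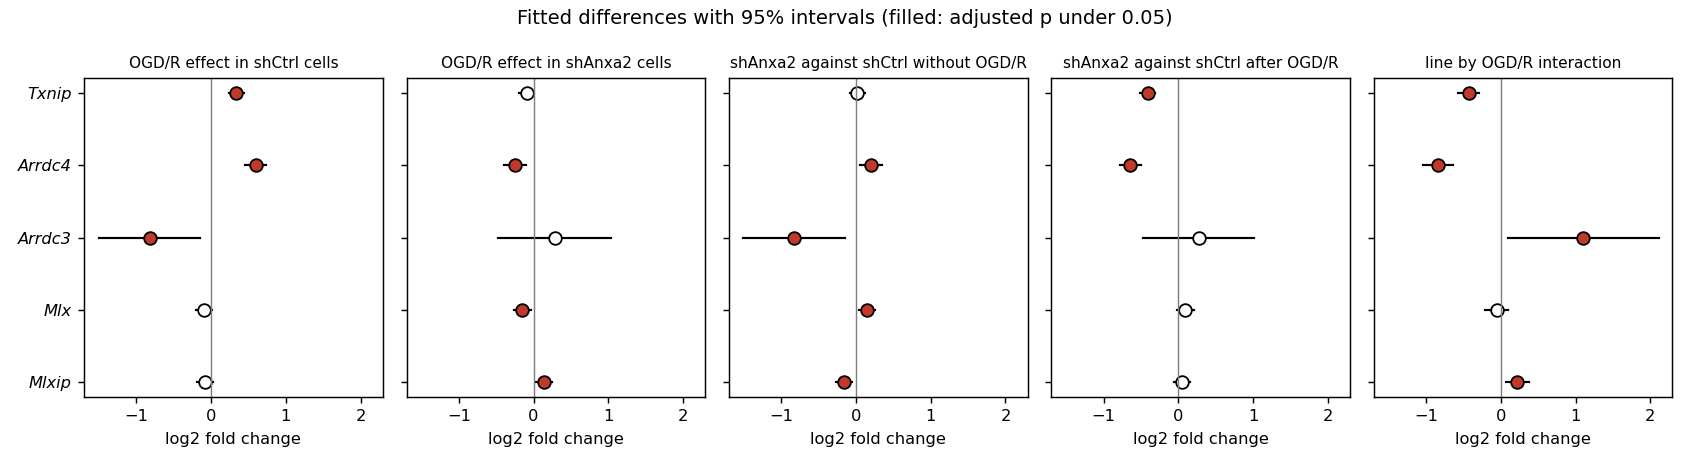
Log2 fold change with its 95% interval for each gene in the comparisons. Points are edgeR estimates over 3 libraries per group, filled where the adjusted p is under 0.05. Arrdc4 and Txnip are above 0 in shCtrl cells, and Arrdc3 has the widest intervals.

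Counts over the 5 genes were read against the share of all 11626 tested genes that passed an adjusted p under 0.05. In shCtrl cells OGD/R called 3 of 5 genes, 2 higher and 1 lower, against 63.4% of all genes (32.4% higher and 31.0% lower). In the shAnxa2 line 3 of 5 were called, 1 higher and 2 lower, against 55.0% (28.2% and 26.8%). Between the lines under CTRL labels 4 of 5 were called, 2 in each direction, against 59.2% (29.5% and 29.7%). Under OGDR labels 2 of 5 were called, both lower, against 67.9% (33.8% and 34.2%). The interaction called 4 of 5, 2 in each direction, against 70.0% (34.9% and 35.1%). When a log2 change of at least 1 was also required, 0 of 5 genes were called in the 4 comparisons of groups, against 6.73%, 3.54%, 5.68% and 10.1% of all genes in the order above, and Arrdc3 alone in the interaction, against 21.5%. Groups that did not overlap in CPM were also common over all genes, at 63.6% between the lines under CTRL labels and 69.9% under OGDR labels.

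Over all genes the shAnxa2 line moved opposite to shCtrl cells under the treatment labels. The OGD/R comparisons of the lines share no library, and of 5239 genes called in both, 5165 had opposite signs. Pairs of groups that cross the treatment labels were compared after the data had been seen. Between the libraries labelled shAnxa2-OGDR and shCtrl-CTRL, 0 of 5 genes passed, 0 at an unadjusted p under 0.05 in edgeR and 0 by DESeq2 or limma voom, against 39.9% of all genes called. The libraries did not overlap for 1 of 5, Txnip, against 49.3% of genes. Txnip differed there by -0.07 (95% interval -0.17 to 0.02, adjusted p = 0.224 by edgeR) and Arrdc4 by -0.05 (adjusted p = 0.635 by edgeR). Between shAnxa2-CTRL and shCtrl-OGDR, 3 of 5 passed in edgeR, against 44.1% of genes: Txnip at -0.32 (adjusted p = 6.64e-06), Arrdc4 at -0.40 (adjusted p = 4.63e-05) and, in the other direction, Mlx at 0.24 (adjusted p = 0.000838). All but Arrdc3, 4 of 5, did not overlap there, against 52.2% of genes.

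**Figure D5:**
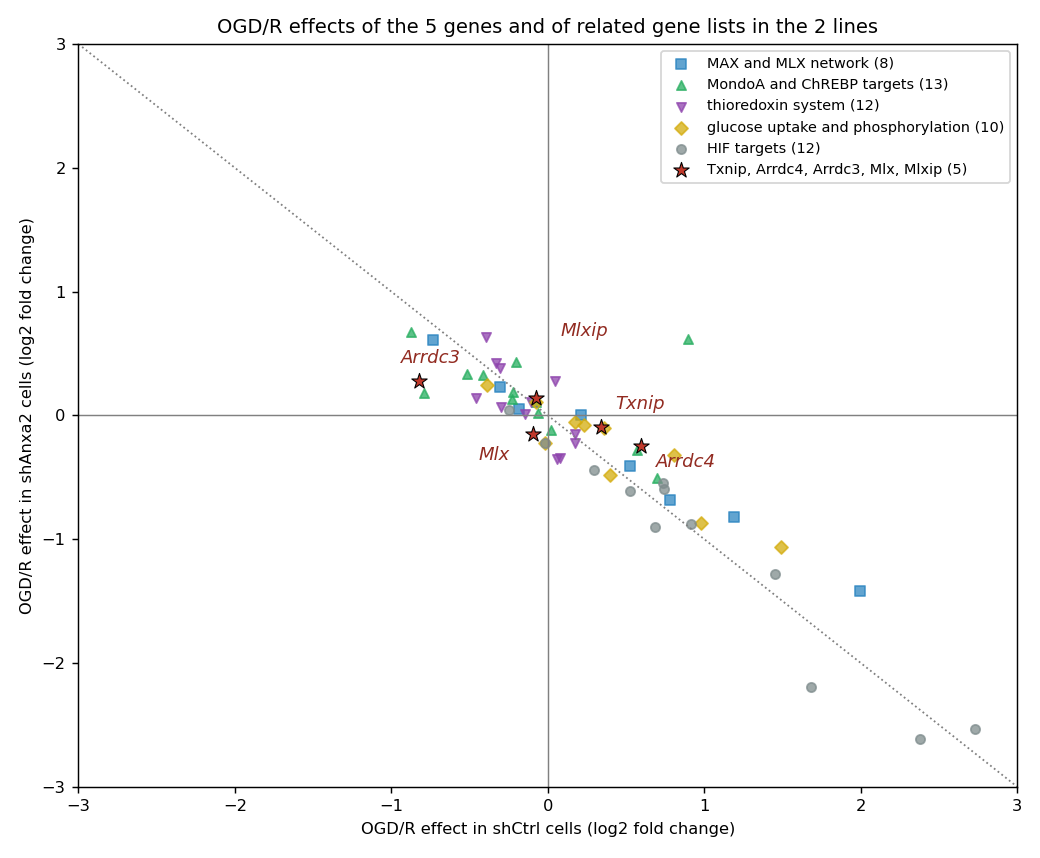
OGD/R effect in shCtrl cells on the horizontal axis and in the libraries labelled shAnxa2 on the vertical axis, both as log2 fold change. Stars are the 5 genes, other symbols are the tested genes of 5 related lists, and the dotted line marks equal and opposite effects. Arrdc4 is at 0.60 and -0.24.

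Other targets of MondoA and ChREBP changed in both directions. Of 20 targets listed, 13 passed the filter, and in shCtrl cells 2 were higher and 7 lower after OGD/R, with a median log2 change of -0.20, against 32.4% of all genes higher and 31.0% lower and a median near 0. Fasn, the fatty acid synthase, fell from 1062 to 579 CPM (log2 fold change -0.87, adjusted p = 1.54e-13 by edgeR). Elovl6, a fatty acid elongase, fell by 0.79 on the log2 scale, and Tkfc, an enzyme of fructose metabolism, rose by 0.70. In the libraries labelled shAnxa2, 5 of 13 were higher and 2 lower under OGDR labels, against 28.2% and 26.8% of all genes. G6pc, Fgf21 and Pnpla3, targets best known from liver, were at 0 in every library.

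The relatives of Mlx moved in both directions. Of the 11 other genes of the MAX and MLX network, 8 were tested, of which 5 were higher and 3 lower in shCtrl cells (median 0.37), against 32.4% and 31.0% of all genes. Myc, the growth-promoting partner of Max, rose from 2.51 to 10.1 CPM (log2 fold change 1.99, adjusted p = 4.58e-11 by edgeR), and Mxd1 (1.19) and Mxd4 (0.78), which oppose Myc at the same DNA motif, rose too. In the shAnxa2 line 2 were higher and 4 lower under OGDR labels, against 28.2% and 26.8%. The alpha-arrestins Arrdc1 and Arrdc2 both rose in shCtrl cells, by 0.31 (SE 0.06) and 0.38 (SE 0.09). With Txnip and Arrdc4 this made 4 alpha-arrestin genes higher, and Arrdc3 lower, against 32.4% and 31.0% of all genes. Arrdc5, also of this family, had at most 4 counts in any library and was not tested. The Arrdc3 call held in only 2 of 6 fits that left out 1 library.

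Alpha-arrestins recruit ubiquitin ligases of the NEDD4 type, and of 9 tested ligases and adaptors 6 were higher and 0 lower in shCtrl cells (median 0.18), against 32.4% and 31.0% of all genes. Ndfip1, an adaptor of these ligases, rose by 0.53 (SE 0.07), Wwp1 by 0.43 and Nedd4l by 0.31. In the shAnxa2 line 0 were higher and 5 were lower, against 28.2% and 26.8%. Itch, a ligase known to act on Txnip, rose by 0.17 (adjusted p = 0.00374 by edgeR). Of 10 tested genes of glucose uptake and first phosphorylation, 6 were higher and 1 lower in shCtrl cells (median 0.30), against the same 32.4% and 31.0%. Slc2a8, an intracellular glucose transporter, rose from 6.18 to 17.3 CPM (1.49), Slc2a9, a urate transporter of the same family, by 0.98, and Hk1, a hexokinase, by 0.40. Slc2a1, the main glucose transporter of most cells and a cargo of Txnip, was chosen after its values were seen: 144 and 142 CPM (log2 fold change -0.02, adjusted p = 0.832 by edgeR).

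The thioredoxin system list held thioredoxin, which Txnip protein binds, but also thioredoxin reductases, thioredoxin-like proteins and glutaredoxins. In shCtrl cells 1 of its 12 genes was higher and 5 were lower (median -0.13), against 32.4% and 31.0% of all genes. The next lists are read against these shares too. Txnrd1, the cytosolic thioredoxin reductase, fell by 0.39 (SE 0.05), the mitochondrial thioredoxin Txn2 by 0.33 and the mitochondrial glutaredoxin Glrx5 by 0.30. Under OGDR labels the shAnxa2 line had 8 of 12 higher and 3 lower than shCtrl, against 33.8% and 34.2% of all genes. Between the lines under CTRL labels the counts were 2 and 2, against 29.5% and 29.7% of all genes. Txn1, chosen after its values were seen, was at 142 and 147 CPM in shCtrl cells (adjusted p = 0.653 by edgeR). Among 5 other reported Txnip partners, 2 were higher and 2 lower, and of these partners Itch and Slc2a1 were also counted in lists above. Nlrp3, the inflammasome sensor, fell from 51.1 to 37.9 CPM (-0.43, adjusted p = 1.5e-05 by edgeR), while Ddit4, an inhibitor of mTORC1 induced by hypoxia, rose by 1.57. Of 7 AMPK subunits 1 was higher and 2 lower (Prkaa1 -0.28, Prkag1 -0.25, Prkaa2 0.22). Of 11 tested FOXO factors and targets, 7 were higher and 0 lower (median 0.32, against 32.4% and 31.0% of all genes), led by Ccng2 (1.34), Pik3ip1 (0.54) and Cdkn1b (0.53), genes that restrain growth.

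In the shAnxa2 line 28.2% of all genes were higher and 26.8% lower under OGDR labels. Glucose uptake had 1 of 10 higher and 4 lower (Slc2a8 -1.06, Hk1 -0.48), and FOXO factors and targets had 2 of 11 higher and 6 lower (Ccng2 -1.37). The thioredoxin system had 4 of 12 higher and 3 lower (Txnrd1 0.63, Txn2 0.42), near the shares over all genes. The Txnip partners had 1 of 5 higher and 3 lower, where Nlrp3 rose by 0.18 and Ddit4 fell by 1.49, and AMPK subunits had 0 of 7 higher and 1 lower. Slc2a1 was at 150 and 129 CPM there (log2 fold change -0.22, adjusted p = 0.0183 by edgeR). In the interaction 7 of 13 carbohydrate response targets were higher and 2 lower, while 0 of 9 NEDD4-type genes were higher and 7 lower, against 34.9% and 35.1% of all genes. Arrdc1 and Arrdc2 had interactions of -0.56 and -0.55, of the same sign as those of Txnip and Arrdc4 (adjusted p = 4.42e-06 and 0.000294 by edgeR).

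The genes most like Txnip over the 12 libraries, by Pearson correlation of log2 CPM and as a description, were Ctsa (0.98), Apoe (0.97), Blnk (0.97), Tmem143 (0.96) and Hgsnat (0.96). Those most like Arrdc4 included Ms4a7 (0.99), Pou2f2 (0.98), Fabp4 (0.98) and 9530068E07Rik (0.98). The libraries share groups and depth scaling, and many genes follow the same order of groups. For Arrdc3 the values were lower, from 0.89 (Hdgfl3) to 0.85 (Zfp979), with counts near the filter.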

How the data were processed

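Whole-number read counts per gene were used as the authors deposited them. Reads had been aligned with HISAT2 2.0.4 to mm39 per the submitters' processing notes. A further 12 per-sample columns of the table were not used. Groups came from sample titles. The 5 genes and all gene lists were chosen with earlier results of these data known, and some genes are in more than 1 list. Genes with at least 0.5 CPM in at least 3 libraries (11626) were tested with the edgeR 4.0.16 quasi-likelihood test in R 4.3.3 on all 12 libraries, with TMM factors and Benjamini-Hochberg adjustment at 0.05. CPM values were scaled by tested-gene totals times the TMM factor. RPKM used GENCODE exon lengths of another build (GRCm38). With 3 against 3 libraries an exact permutation test cannot go below p = 0.1, so model p-values are given. Genes named from a list were the 3 called in shCtrl cells with the largest change among those with a mean of at least 1 CPM, and members at 0 in every library. Genes most like Txnip, Arrdc4 and Arrdc3 were the 5 with the highest correlation. Some genes that these rules name are not reported here. Alternatives were other scalings, filters, DESeq2 1.42.0, limma 3.58.1 voom, a replicate block, 2-group fits and each library left out. The fitting step was tested on simulated data.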

Additional observations from a re-analysis of the deposited data

Results flagged for a closer look

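Under the treatment labels, the OGD/R effect differed between the 2 lines for 4 of the 5 genes, tested as an interaction across all 12 libraries in edgeR. An exchange of treatment labels within the shAnxa2 line cannot be told apart from such a difference. The difference, the effect in the libraries labelled shAnxa2 minus that in shCtrl cells on the log2 scale, was -0.43 for Txnip (adjusted p = 3.34e-06), -0.84 for Arrdc4 (adjusted p = 5.51e-08), 1.10 for Arrdc3 (adjusted p = 0.0479) and 0.22 for Mlxip (adjusted p = 0.0106). For Mlx it was -0.06 (adjusted p = 0.511). Of all tested genes 70.0% passed the same test. The Arrdc3 and Mlxip calls were lost with upper-quartile factors, which left 2 of the 5 genes called, and each was lost without some single libraries.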

How the results depend on the processing

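Txnip and Arrdc4 kept their calls in shCtrl cells, between the lines under OGDR labels and in the interaction under every alternative run, with the exception of a log2 limit of 1, and without any single library. In the libraries labelled shAnxa2, the OGD/R change of Txnip passed with upper-quartile factors (-0.14), library totals (-0.12), no filter (-0.12) and DESeq2 (-0.10), while that of Mlxip no longer passed with upper-quartile factors (0.10), library totals (0.11), no filter (0.11) or a fit of those 2 groups (0.13). The Arrdc3 interaction no longer passed with upper-quartile factors (1.03), library totals (1.08), no filter (1.08) or DESeq2 (1.11), nor did that of Mlxip with upper-quartile factors (0.15), which left 2 of 5 called. The cause was not tested.

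A log2 limit of 1 left 541 genes higher and 242 lower in shCtrl cells, 94 and 318 in shAnxa2, 447 and 213 between the lines under CTRL labels, 425 and 747 under OGDR labels, and 1026 and 1471 in the interaction, with 0, 0, 0, 0 and 1 of the 5 genes. By construction it dropped Txnip (0.34), Arrdc4 (0.60) and Arrdc3 (-0.82) in shCtrl cells. It dropped Arrdc4 (-0.24), Mlx (-0.15) and Mlxip (0.14) in shAnxa2, and Arrdc4 (0.20), Arrdc3 (-0.83), Mlx (0.15) and Mlxip (-0.17) between the lines under CTRL labels. Txnip (-0.41) and Arrdc4 (-0.64) were dropped under OGDR labels, and Txnip (-0.43), Arrdc4 (-0.84) and Mlxip (0.22) in the interaction.

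Leaving out 1 library moved Arrdc3 between -0.92 and -0.72 in shCtrl cells, between -1.08 and -0.48 between the lines under CTRL labels and between 0.75 and 1.35 in the interaction. Where it had not passed, it ranged from -0.07 to 0.53 in shAnxa2 and from -0.03 to 0.40 between the lines under OGDR labels, where Mlxip ranged from -0.01 to 0.10. The interaction call was lost without replicate 1 or 2 of shCtrl-CTRL, any shCtrl-OGDR library, shAnxa2-CTRL replicate 1 or shAnxa2-OGDR replicate 2. Mlxip ranged from 0.15 to 0.27 there, lost without shCtrl-CTRL replicate 3 or shAnxa2-OGDR replicate 3. Between the lines under CTRL labels Arrdc4 ranged from 0.14 to 0.24, Mlx from 0.11 to 0.17 and Mlxip from -0.18 to -0.13, with 1 to 4 of 5 called (1 without shCtrl-CTRL replicate 3 or shAnxa2-CTRL replicate 1). In shAnxa2, Mlx ranged from -0.20 to -0.11 and Mlxip from 0.083 to 0.19, with 1 to 3 called (1 without shAnxa2-OGDR replicate 3).

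Deviations of same-numbered libraries from their group means were at most weakly correlated (correlations -0.05 to 0.13 over 18 pairs, 1 over 0.1). With 3 libraries a group this cannot exclude a pairing, and neither the study's methods nor the labels state one. With a replicate block the Arrdc3 interaction was 1.09 and no longer passed, and no other call for the 5 genes changed. Depth limits Arrdc3 most, since a library held at most 39 of its reads.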
